A study of Homo sapiens with 6 samples.

Results

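Aminoacyl-tRNA synthetases join each amino acid to its tRNA and so supply the ribosome. The cytosol and the mitochondrion each have a set of them, for the most part encoded by separate nuclear genes. The group described here was taken by gene symbol from a fixed list, and all 38 members had a row among the 58735 genes of the deposited table. It holds 19 cytosolic synthetase genes, 3 scaffold proteins of the multi-synthetase complex (EEF1E1, AIMP1 and AIMP2) and 16 mitochondrial synthetases, whose symbols end in 2. All 38 passed the filter on low counts and were among the 13503 genes tested.

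Expression was measured by RNA sequencing of polyA RNA in RKO, an established human colorectal carcinoma cell line. There were 2 groups of 3 replicates, cells treated with EZA and cells treated with DMSO, the control, and the comparison asked which transcripts differed between them. EZA is named in the labels only by these letters, and neither dose nor duration is given in the sources used here. Replicates are called biological by the study, without word on whether cultures were separate. The p-values therefore cover only the spread among these 6 libraries.

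Libraries held 14070611 to 18840954 counts. EZA replicate 3 stood apart: mitochondrially encoded genes took 0.203% of its counts against 3.68% to 5.02% in the other 5 libraries, and calls that rest on it, and members in which it stood apart, are given with and without it. The 8 epithelial markers summed to 164 to 189 CPM (counts relative to library size), most of it from KRT18. Only 4 of them, KRT8, KRT18, EPCAM and CDX2, passed the filter on low counts. KRT19, VIL1 and LGALS4 had at most 1 count in any library, and CDH1, which encodes E-cadherin, was at 0. All 4 leukocyte markers were at 0, and fibroblast and endothelial markers summed to at most 0.711 CPM.

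Uncharged tRNA activates the kinase GCN2, which phosphorylates the initiation factor eIF2 and so raises translation of the transcription factor ATF4. Several cytosolic synthetase genes are known targets of ATF4. The mitochondrial enzymes serve the translation of the few proteins encoded in mitochondrial DNA. Glycyl- and lysyl-tRNA synthetase, GARS1 and KARS1, serve both compartments from 1 gene each and are counted here as cytosolic.

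EZA-treated cells carried more transcript of many cytosolic synthetases, while nearly all mitochondrial ones stayed below the threshold. Of the 19 cytosolic synthetases 10 rose (edgeR quasi-likelihood test, Benjamini-Hochberg adjusted p below 0.05 over all genes), 9 were not called and 0 fell. Of the 16 mitochondrial ones 1 rose, and none of the 3 scaffold genes was called. In all 11 of 38 members rose, against 9.89% of all genes tested, and 0 fell, against 7.82%. At an unadjusted p below 0.05, 15 members were higher and 1 lower, against 18% and 16.6% of all genes. By DESeq2 13 members were higher and 1 lower (12.8% and 10.1% of all genes), and by limma-voom 10 and 0 (9.21% and 7.89%). With scaling by library size alone, 8 members were higher and 1 lower, where all genes went from 1336 higher and 1056 lower to 1059 and 1270 (7.84% and 9.41%). The median log2 fold change, EZA over DMSO, was 0.50 in the cytosolic synthetases, 0.01 in the mitochondrial ones and -0.01 over all genes tested. In RNA from whole cultures a change in all cells and a change in the share of some cells cannot be told apart.

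Normalised counts (CPM, relative to library size after TMM scaling) summed over the 19 cytosolic synthetases were 4496, 4360.1 and 4288 in the DMSO libraries, in the order of their replicate numbers as in all lists of values here. In the EZA libraries they were 7027, 7308 and 7462. The EZA mean was 1.66 times the DMSO mean. The sum over the 16 mitochondrial synthetases was 895, 906 and 900.4 CPM in DMSO and 898, 959 and 1004 CPM in EZA, a ratio of means of 1.06. The cytosolic sums of the groups lay far apart, and the mitochondrial sums overlapped.

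**Figure D1:**
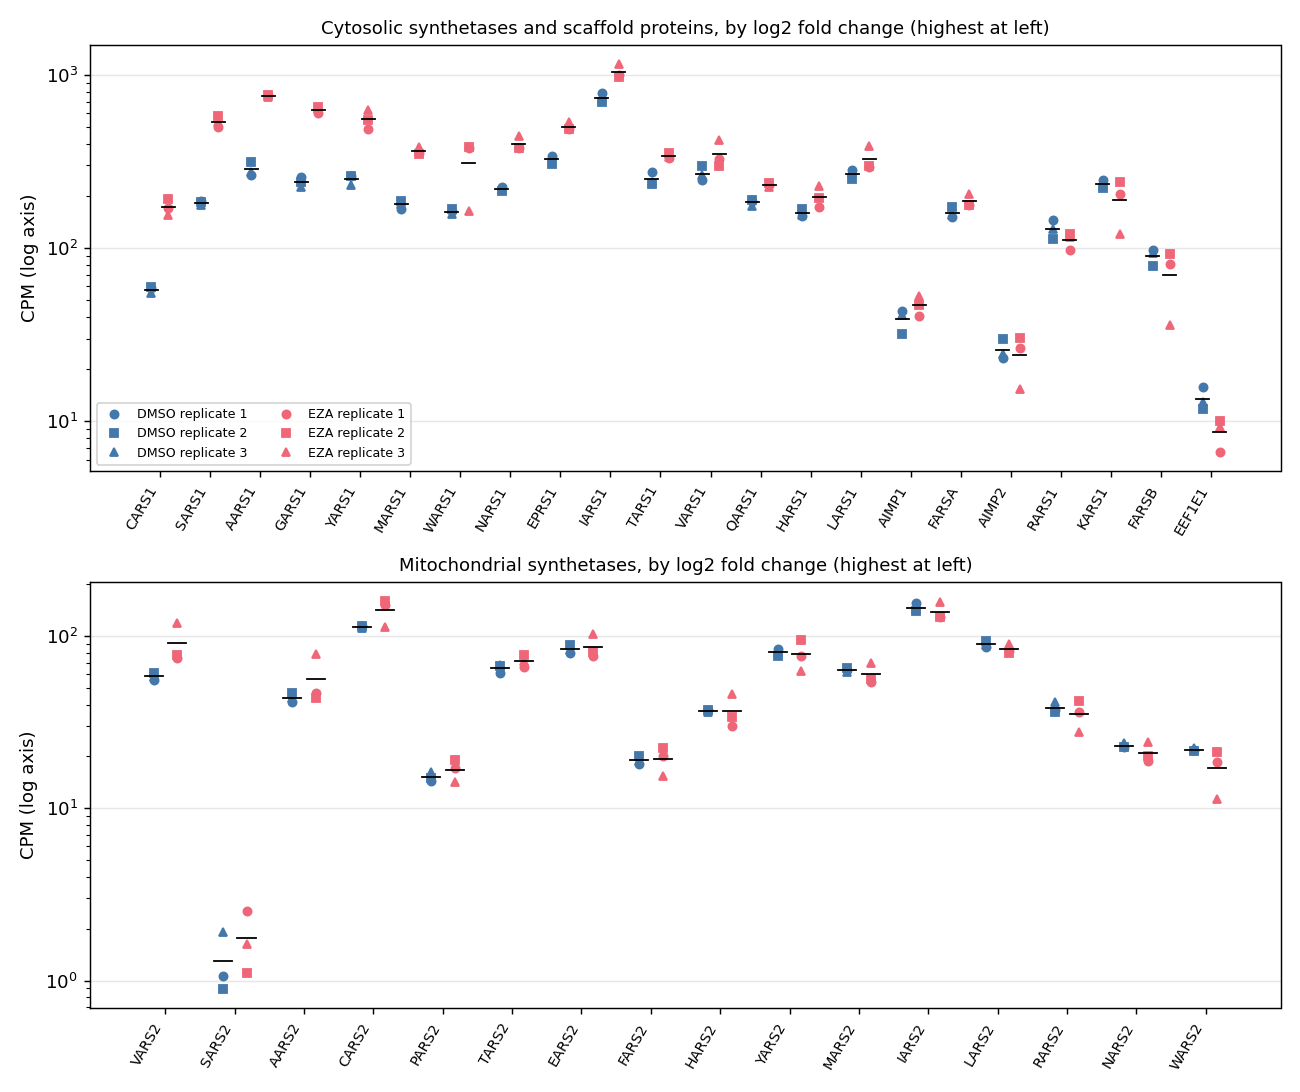
Normalised counts (CPM, log axis) of the 38 members, a point per library, with black bars for group means; the upper panel holds the cytosolic synthetases and scaffold proteins and the lower panel the mitochondrial synthetases. CARS1, SARS1, AARS1 and GARS1 at the left of the upper panel show the widest gaps, and WARS1 in EZA replicate 3 (163 CPM) lies among the DMSO libraries.

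The synthetases with the largest rises were those for cysteine, serine, alanine and glycine, all outside the multi-synthetase complex. CARS1, which charges cysteine tRNA (ENSG00000110619, chromosome 11, 3000922 to 3057613, GRCh38), was at 58.6, 59.3 and 54.7 CPM in DMSO and at 171, 192 and 156 CPM in EZA. The groups did not overlap, and the log2 fold change was 1.58 ± 0.13 (SE; edgeR adjusted p = 0.000357). SARS1, the seryl enzyme (ENSG00000031698, chromosome 1, 109213918 to 109238182), had 186, 185 and 177 CPM in DMSO and 500.1, 575 and 533.5 CPM in EZA. Its replicates lay close together within each group, with a log2 fold change of 1.55 ± 0.12 (adjusted p = 0.000348).

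AARS1, the alanyl enzyme (ENSG00000090861, chromosome 16, 70251983 to 70289707), went from 263, 315.5 and 276 CPM in DMSO to 763, 762 and 749 CPM in EZA. The 3 EZA libraries were nearly level and all far above DMSO (log2 fold change 1.41 ± 0.13, edgeR adjusted p = 0.000734). GARS1, which charges glycine tRNA (ENSG00000106105, chromosome 7, 30580533 to 30634033), had 257, 239 and 225 CPM in DMSO and 601, 649 and 639 CPM in EZA. Again no library of one group reached the other, and the log2 fold change was 1.39 ± 0.13 (adjusted p = 0.000631). Without strand information reads of the divergent transcript GARS1-DT, with 312 exonic bases in common and 853 counts against 41653, cannot be told apart from those of GARS1.

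YARS1, the tyrosyl enzyme (ENSG00000134684, chromosome 1, 32775237 to 32818031), rose from 259, 259 and 230.2 CPM to 488, 552 and 627.5 CPM (log2 fold change 1.16 ± 0.14, edgeR adjusted p = 0.00305). MARS1, the methionyl enzyme, which charges both initiator and elongator tRNA (ENSG00000166986, chromosome 12, 57475445 to 57517569), rose from 169, 188 and 179 CPM to 355, 347 and 385 CPM. All EZA libraries were above all DMSO libraries, and the log2 fold change was 1.02 ± 0.12 (adjusted p = 0.00248). MARS1 shares 355 exonic bases with DDIT3, a stress transcription factor on the opposite strand that itself had a log2 fold change of 1.81 ± 0.21. DDIT3 held 2284 counts in all and MARS1 25768; how reads in the shared bases were counted is not stated in these sources, and their part in the MARS1 value was not tested.

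These 6 genes, CARS1, SARS1, AARS1, GARS1, YARS1 and MARS1, were also the only members past the study's own threshold, a log2 fold change of at least 1 in size with an unadjusted p below 0.05. That threshold was met upward by 3.77% of all genes tested and downward by 1.96%, the latter by 0 members. All 6 kept their calls under each of the 14 alternative settings, which included leaving out each library in turn.

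The other 5 rises were smaller, and their calls were lost more readily when a library was left out. Without DMSO replicate 1, 2 or 3, calls over all genes also fell, from 2392 to 220, 787 and 254. NARS1, the asparaginyl enzyme (ENSG00000134440, chromosome 18, 57600656 to 57622213), had 226.5, 214 and 218.5 CPM in DMSO and 377, 378 and 445 CPM in EZA, with no overlap. Its log2 fold change was 0.86 ± 0.13 (SE; edgeR adjusted p = 0.00539), and only without DMSO replicate 3 did it miss the threshold (0.0523). EPRS1, a fusion of the glutamyl and prolyl enzymes (ENSG00000136628, chromosome 1, 219968600 to 220046530), had 339, 304 and 337.5 CPM in DMSO and 485.5, 489 and 533 CPM in EZA. The groups were separate (log2 fold change 0.62 ± 0.12, adjusted p = 0.0144), but the call was lost without any 1 of the DMSO replicates (adjusted p up to 0.0926).

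IARS1, the isoleucyl enzyme (ENSG00000196305, chromosome 9, 92210207 to 92293854), had 790.5, 701 and 721 CPM in DMSO and 996, 970.0 and 1155 CPM in EZA. TARS1, the threonyl enzyme (ENSG00000113407, chromosome 5, 33440696 to 33468091), had 274, 234 and 241 CPM in DMSO and 330.1, 355 and 336 CPM in EZA. Both were separate between groups, with log2 fold changes of 0.50 ± 0.14 and 0.45 ± 0.12 (SE; edgeR adjusted p = 0.0416 and 0.0381). Both lost their calls without DMSO replicate 1, 2 or 3 or EZA replicate 1 or 2, with an adjusted p of up to 0.196 for IARS1 and 0.192 for TARS1. The same happened with scaling by library size alone (0.0626 and 0.0544) and, for both, with the replicate number as a block (0.107 and 0.0925).

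VARS2, the mitochondrial valyl enzyme (ENSG00000137411, chromosome 6, 30914205 to 30926459), was the 1 mitochondrial member that rose. It had 55.8, 61.35 and 57.85 CPM in DMSO and 74.2, 77.75 and 119.6 CPM in EZA, where replicate 3 was highest (log2 fold change 0.63 ± 0.19, SE; edgeR adjusted p = 0.0494). Without EZA replicate 3 the log2 fold change was 0.38, with an adjusted p of 0.00584. The call was lost without DMSO replicate 1, 2 or 3 or EZA replicate 2, with an adjusted p of up to 0.186. Once the dependence of counts on transcript GC content and length was removed, its log2 fold change was 0.34 (adjusted p = 0.222), and the GC content of its transcript was 59.9%.

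The other 15 mitochondrial synthetases were not called, with log2 fold changes from -0.36 ± 0.22 (WARS2) to 0.43 ± 0.42 (SARS2) (SE). Without EZA replicate 3, which is described below, WARS2 was at -0.14. LARS2, HARS2, FARS2 and RARS2, for leucine, histidine, phenylalanine and arginine, were at -0.09 ± 0.12, -0.01 ± 0.17, 0.02 ± 0.17 and -0.12 ± 0.17, and without that library HARS2, FARS2 and RARS2 were at -0.21, 0.165 and 0.04, also without a call. HARS2 and HARS1 lie head to head on chromosome 5 and share 108 exonic bases, so some of their reads cannot be told apart.

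The promoters of the members, risen or not, and of other genes were searched for the C/EBP-ATF response element. ATF4 and its C/EBP partners bind target genes through this sequence. The search used TGATGNAA on both strands of RefSeq promoter windows (GRCh38.p14), which span 250 bases before to 50 bases after each annotated start; a gene can have several windows. Of the 38 members 33 had a window, and AARS2, LARS1, VARS1, VARS2 and YARS1 had none. The 8 members with a match are printed below as 30 bases each, 5′ to 3′ on the strand of the gene, with the matching bases in capitals; TTNCATCA is the same motif read on the other strand. They are shown because 7 of the 8 are members that rose.
CARS1 (chr11:3057407-3057436, minus strand): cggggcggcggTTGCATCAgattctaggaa
AARS1 (chr16:70289675-70289704, minus strand): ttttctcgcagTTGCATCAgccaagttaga
GARS1 (chr7:30594834-30594863, plus strand): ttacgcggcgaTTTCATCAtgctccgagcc
MARS1 (chr12:57488053-57488082, plus strand): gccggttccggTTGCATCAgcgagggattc
NARS1 (chr18:57621804-57621833, minus strand): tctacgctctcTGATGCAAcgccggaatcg
IARS1 (chr9:92293692-92293721, minus strand): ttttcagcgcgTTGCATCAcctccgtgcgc
TARS1 (chr5:33440956-33440985, plus strand): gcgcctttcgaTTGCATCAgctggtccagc
YARS2 (chr12:32756076-32756105, minus strand): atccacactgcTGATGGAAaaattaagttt

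Positions of the matches were counted from the start of the RefSeq window's transcript as 1, with negative numbers upstream; in all 8 members this is also the start of the canonical GENCODE transcript. The matching bases began at -2 in CARS1, -4 in MARS1, -13 in IARS1, -33 in GARS1, 3 in TARS1 and 15 in NARS1. In AARS1 they began at -187 and in YARS2 at -197. Other annotated transcripts start further upstream, so that the AARS1 match, like those of the other 6 risen members, lies inside the gene bounds given above. Of the 9 risen members with a window 7 had a match, and SARS1 and EPRS1 had none. Of the 24 members that were not called and had a window, 1 had a match, the mitochondrial YARS2, and 0 of the 10 cytosolic and scaffold ones did. Among all 27305 genes with a window 4.46% had a match, and among the 9932 tested genes 2.65%. Of the 1006 tested genes called higher 33 had a match, or 3.28%, and these include the 7 risen members.

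The version TGATGCAA, in which the open position is C, was found in 6 members, and these were CARS1, AARS1, MARS1, NARS1, IARS1 and TARS1. It was found in 1.08% of all genes with a window, in 0.715% of tested genes and in 0.628% of those not called. Among the 1006 tested genes called higher 18 had it, or 1.79%, and these include the 6 members. Among tested genes called lower the share was 0.247%. A match is a description of letters, and no match says only that these letters are not in this window.

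WARS1, the tryptophanyl enzyme (ENSG00000140105, chromosome 14, 100333790 to 100376805), divided the EZA libraries. It had 163, 167 and 156.5 CPM in DMSO and 377, 384 and 163 CPM in EZA, so that EZA replicate 3 was at the DMSO level and the other EZA libraries at more than 2-fold that level. With all 6 libraries the log2 fold change was 0.93 ± 0.28 (SE; edgeR adjusted p = 0.053), short of the threshold, and by DESeq2 it passed (0.0106). Without EZA replicate 3 it was 1.23 with an adjusted p of 9.05e-13.

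EZA replicate 3 also stood apart in some other members. It was more than 1.5 times below the mean of EZA replicates 1 and 2 in 5 members and more than 1.5 times above it in 2, AARS2 and VARS2. The 5 lower ones were WARS1, FARSB, KARS1, AIMP2 and WARS2, at 0.428, 0.413, 0.546, 0.544 and 0.569 times that mean. Its share of mitochondrially encoded counts was low as well, as given above; its part in these values was not tested. Without EZA replicate 3 the log2 fold change went from -0.36 to -0.05 in FARSB, from -0.31 to -0.07 in KARS1, from -0.36 to -0.14 in WARS2, from -0.11 to 0.13 in AIMP2 and from 0.36 to 0.04 in AARS2, none of them called either way. In the other 31 members, among them the 10 risen cytosolic ones, it lay within 1.5 times. Calls were more frequent among all genes without this library, at 19.1% higher and 19.2% lower. Of the members 14 were then called higher and 1 lower; WARS1, QARS1 and CARS2 joined the 11 that rose with all libraries, and the scaffold gene EEF1E1 was called lower.

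**Figure D2:**
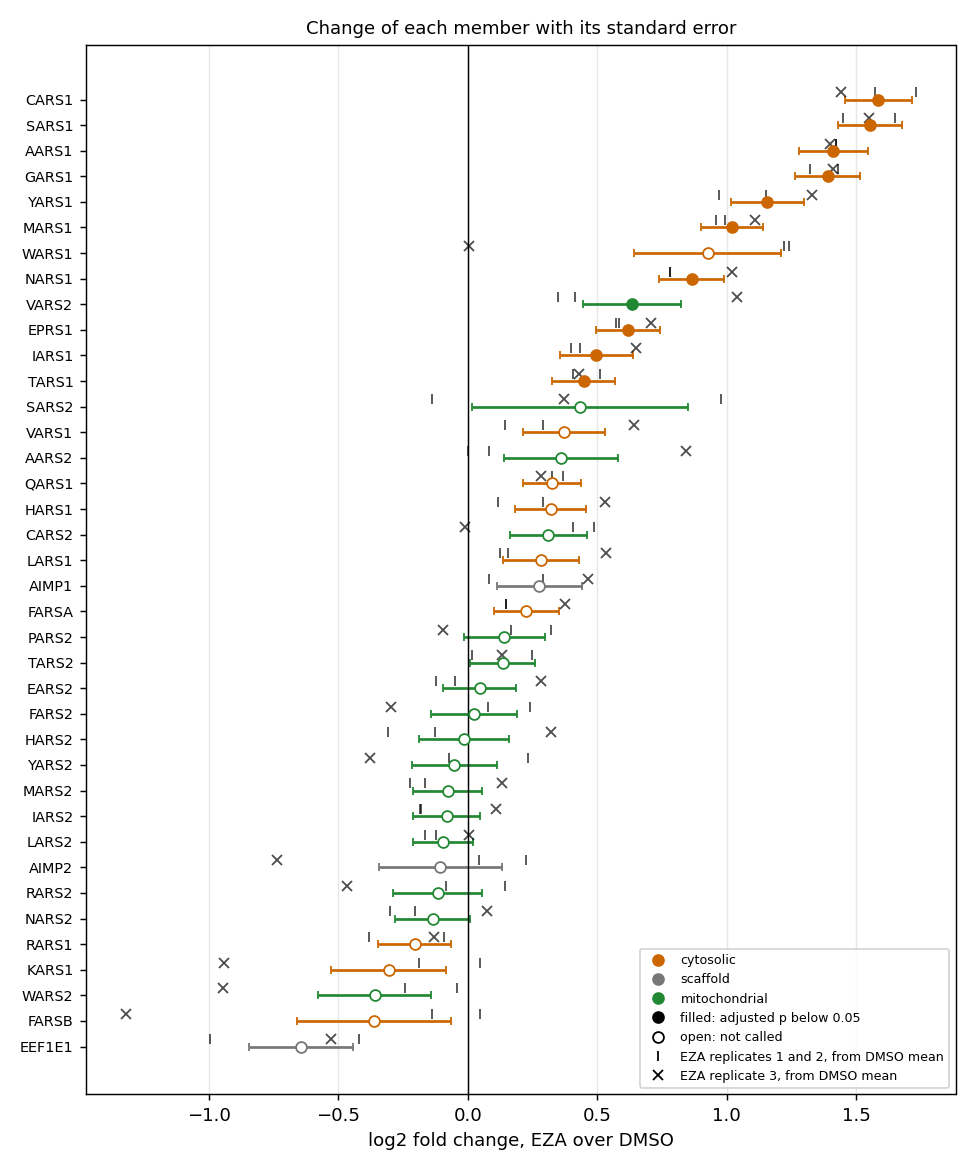
Log2 fold change, EZA over DMSO, of the 38 members with standard errors, filled where adjusted p was below 0.05; small marks give each EZA library's log2 difference from the DMSO mean. The 10 filled cytosolic points run from 0.45 (TARS1) to 1.58 (CARS1), and the cross of EZA replicate 3 lies away from the other marks in WARS1, FARSB and KARS1.

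None of the remaining 8 cytosolic synthetases was called. QARS1, the glutaminyl enzyme, was higher in each EZA library (187, 190.5 and 176 CPM in DMSO, 231, 238 and 224 CPM in EZA) but missed the threshold (log2 fold change 0.33 ± 0.11, edgeR adjusted p = 0.0739). HARS1, LARS1 and FARSA, for histidine, leucine and phenylalanine, were also separate between groups. Their log2 fold changes were 0.32 ± 0.14, 0.28 ± 0.15 and 0.23 ± 0.13. Without EZA replicate 3 these were 0.21, 0.14 and 0.15, with no call either way. HARS1 shares 1090 exonic bases with WDR55 on the opposite strand, which held 9661 counts against its 16942. The groups overlapped in VARS1 (0.37 ± 0.16), RARS1 (-0.20 ± 0.14), KARS1 (-0.31 ± 0.22) and FARSB (-0.36 ± 0.30). The values of KARS1 and FARSB rest on EZA replicate 3, as given above, and without it VARS1 was at 0.22. FARSA and FARSB encode the 2 subunits of 1 enzyme, the phenylalanyl-tRNA synthetase, and neither was called.

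Of the whole list, 17 of 38 members were separate between groups, or 44.7%, against 42.7% of all genes tested. This share was 14 of 19 in the cytosolic synthetases and 2 of 16 in the mitochondrial ones, VARS2 and WARS2. In WARS2 the groups were separated only by the gap between 21.51 CPM in DMSO replicate 2 and 21.26 CPM in EZA replicate 2.

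In the multi-synthetase complex, a particle that holds several cytosolic enzymes around the 3 scaffold proteins, 3 of the 7 synthetases on the list rose, EPRS1, IARS1 and MARS1, with a median log2 fold change of 0.33 over the 7. Of the 12 cytosolic synthetases outside it 7 rose, with a median of 0.90; no test of this difference was made. EEF1E1 was lower in every EZA library, at 15.7, 11.8 and 12.98 CPM in DMSO and 6.67, 9.995 and 9.26 CPM in EZA, and missed the threshold (log2 fold change -0.64 ± 0.20, edgeR adjusted p = 0.0565). By DESeq2 and without the filter on low counts it passed (0.0328 and 0.0195), and after removal of the GC and length trend its log2 fold change was -0.35 (0.18). AIMP1 and AIMP2 were at 0.28 ± 0.16 and -0.11 ± 0.24, or at 0.18 and 0.13 without EZA replicate 3. AIMP2 shares 532 exonic bases with EIF2AK1 on the opposite strand, which held 13424 counts against its 2405.

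Synthetases fall into 2 structural classes with different catalytic folds, and both classes took part. Of the 9 cytosolic synthetase genes of class I, 4 rose, with a median log2 fold change of 0.50. Of the 9 of class II, in which FARSA and FARSB are counted as separate genes, 5 rose, with a median of 0.45. EPRS1 joins an enzyme of each class and is counted in neither.

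Each cytosolic enzyme was then set against the mitochondrial enzyme for the same amino acid. The ratio of their counts within a library does not depend on how the library is scaled. Of 17 such pairs, the ratio was higher in EZA in 14, and in 12 of these the 3 EZA ratios all lay above the 3 DMSO ratios. In 1 pair, VARS1 to VARS2, they all lay below. Among single genes 42.7% had CPM that were separate between groups, which is a different measure. No such share was computed for ratios of other gene pairs, and EPRS1 and FARS2 are each in more than 1 pair. With 3 libraries against 3 an exact two-sided permutation test cannot go below 0.1, which all 13 separate pairs reached, and adjusted over the 17 pairs this was 0.131.

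The pairs with the largest change were those whose cytosolic member had risen or, in WARS1, differed between EZA libraries. The ratio of CARS1 to CARS2 counts was 0.513, 0.517 and 0.492 in DMSO and 1.13, 1.20 and 1.38 in EZA. It rose 2.44-fold, or by 1.28 ± 0.09 on the log2 scale (SE, n = 3 each). In the deposited FPKM, which are per gene length, CARS1 averaged 5.62 and CARS2 10.6 in DMSO. In EZA they averaged 17.04 and 13.3, so the order of the pair was reversed in this measure. The gene lengths behind these FPKM are not stated. The canonical transcripts are 2737 bases long in CARS1 and 1838 in CARS2, so the order depends on the length used. CARS2 had 114, 115 and 111 CPM in DMSO and 150.4, 159 and 112.5 CPM in EZA, with replicate 3 at the DMSO level.

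For tryptophan the ratio of WARS1 to WARS2 was 7.43, 7.76 and 7.03 in DMSO and 20.4, 18.0 and 14.4 in EZA. It was raised in EZA replicate 3 too, since WARS2 was also low there, with 21.9, 21.5 and 22.2 CPM in DMSO and 18.5, 21.3 and 11.3 CPM in EZA. The ratio of YARS1 to YARS2 was 3.09, 3.37 and 2.79 in DMSO and 6.34, 5.80 and 10.1 in EZA, while YARS2 had 83.8, 76.9 and 82.4 CPM in DMSO and 76.95, 95.2 and 62.3 CPM in EZA.

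The ratio of MARS1 to MARS2 rose from 2.64, 2.89 and 2.90 to 6.53, 6.13 and 5.53, and that of NARS1 to NARS2 from 9.96, 9.50 and 9.08 to 20.1, 18.8 and 18.3. In both pairs the 3 libraries of each group lay close together. MARS2 had 63.8, 64.9 and 61.75 CPM in DMSO and 54.3, 56.6 and 69.6 CPM in EZA, and NARS2 had 22.7, 22.5 and 24.0 CPM in DMSO and 18.7, 20.04 and 24.3 CPM in EZA, so both mitochondrial partners overlapped between groups.

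AARS2 was at 41.5, 46.5 and 43.7 CPM in DMSO and 46.5, 43.8 and 78.8 CPM in EZA, and the ratio of AARS1 to AARS2 went from 6.34, 6.78 and 6.32 to 16.4, 17.4 and 9.50. The rise of AARS2 in EZA replicate 3 alone thus narrowed the ratio in that library. SARS2, the mitochondrial seryl enzyme, had 0.894 to 1.92 CPM in DMSO and 1.10 to 2.54 CPM in EZA. At this depth, 144 counts over all 6 libraries, the pair of SARS1 and SARS2 overlapped between groups. SARS2 shares 1492 exonic bases with a second annotated gene on its strand, which was listed with 0 counts, and how the authors counted shared reads is not stated in these sources.

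Among the pairs with smaller changes, that for isoleucine had the least spread within each group of all 17. The ratio of IARS1 to IARS2 was 5.07, 5.03 and 5.06 in DMSO and 7.76, 7.55 and 7.35 in EZA, a change of 0.58 ± 0.02 on the log2 scale (SE, n = 3 each). IARS2 had 156, 139.5 and 143 CPM in DMSO and 128, 128.5 and 157 CPM in EZA. The ratio of TARS1 to TARS2 changed by 0.32 ± 0.12, with TARS2 at 60.6, 67.0 and 67.6 CPM in DMSO and 65.8, 77.3 and 71.2 CPM in EZA.

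EPRS1 was paired with both of its mitochondrial counterparts, and the log2 ratio changed by 0.58 ± 0.12 over EARS2 and by 0.49 ± 0.18 over PARS2 (SE, n = 3 each), with separate groups in both. EARS2, the glutamyl enzyme, had 80.0, 88.7 and 83.3 CPM in DMSO and 77.0, 81.1 and 102 CPM in EZA. PARS2, the prolyl enzyme, had 14.4 to 16.3 CPM in DMSO and 17.1, 19.1 and 14.2 CPM in EZA. Both overlapped between groups.

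The valine pair went the other way. VARS1, the cytosolic enzyme, had 247, 296 and 264 CPM in DMSO and 328.5, 296 and 419 CPM in EZA, and the ratio of VARS1 to VARS2 was 4.43, 4.82 and 4.56 in DMSO and 4.42, 3.81 and 3.50 in EZA. The groups were separated by no more than the gap between 4.43 and 4.42. The ratios of FARSA and FARSB to FARS2, of RARS1 to RARS2 and of SARS1 to SARS2 overlapped between groups.

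**Figure D3:**
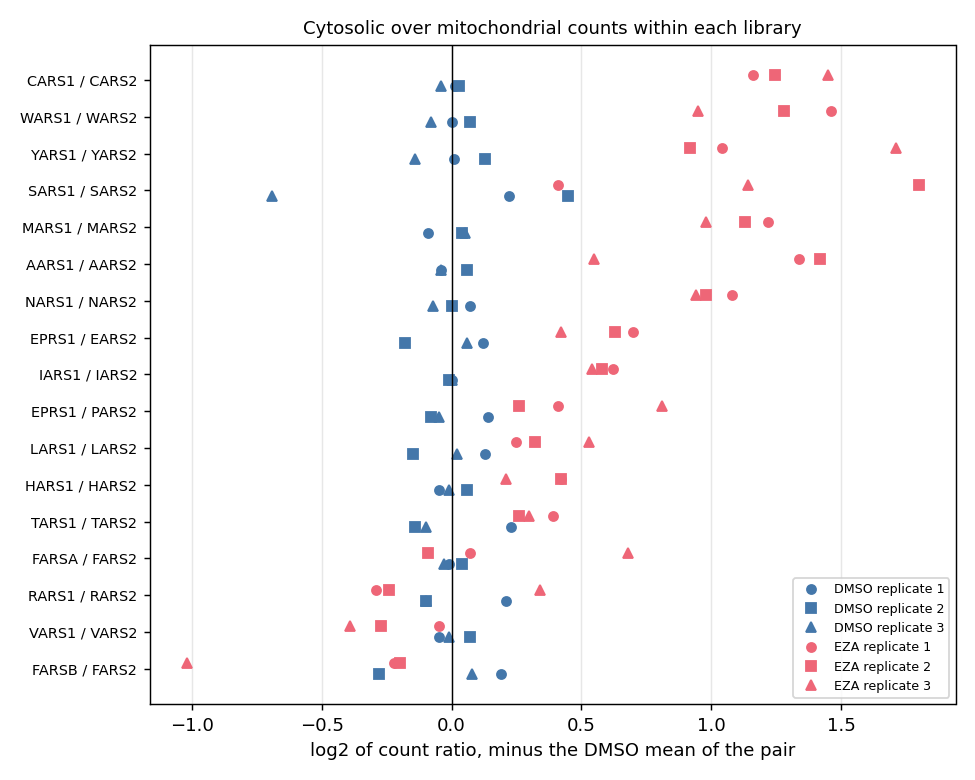
Log2 ratio of cytosolic to mitochondrial counts within each library for 17 pairs, set to 0 at the DMSO mean of each pair; each point is a library. In 12 pairs the 3 EZA points lie to the right of the 3 DMSO points, led by CARS1 over CARS2 at a mean of 1.28.

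The order of levels within the family differed between the groups. In deposited FPKM the highest member in DMSO was IARS1, at 97.75 ± 6.11 (SD, n = 3), followed by FARSA at 64.1 ± 5.06 and AARS1 at 62.2 ± 6.21, which did not differ beyond their spread. In EZA the highest was AARS1, at 167 ± 3.30, followed by GARS1 at 150.2 ± 7.10, IARS1 at 139 ± 12.1 and SARS1 at 138 ± 11.1. YARS1 went from rank 16 to rank 8, with or without EZA replicate 3. KARS1 went from rank 6 to rank 14, with 49.45, 59.29 and 29.26 FPKM in EZA, and was at rank 11 without EZA replicate 3. The mitochondrial synthetases lay lower, with a median of 10.3 FPKM in DMSO against 42.8 for the cytosolic ones, and reached at most 36.9 FPKM in DMSO, in YARS2. CARS1, at 5.62 FPKM in DMSO, was the lowest of the cytosolic synthetases in this measure and had the largest fold change. The gene lengths behind the deposited FPKM are not stated, and the order of genes within a group depends on them.

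Fold changes in these libraries follow GC content, with a Spearman rho of 0.51 across 13445 genes and 0.41 across the 38 members, where genes are not independent replicates. The median GC content of the transcript was 49.2% in the 10 risen cytosolic synthetases, 49.5% in the other 9 and 50.4% in the mitochondrial ones. With the trend with GC content and length removed, 12 of the 22 cytosolic and scaffold members rose and 0 mitochondrial ones, where 6.57% of all genes were higher and 4.82% lower. The median log2 fold change was 0.63 over these 22, from 0.41, and 0.00 over the mitochondrial ones. LARS1 and AIMP1 then rose as well (log2 fold changes 0.53 and 0.65, edgeR adjusted p = 0.0383 and 0.0167).

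Other genes that charge, edit, process or sense tRNA were counted in the same way, beside the 9.89% of all genes that rose and the 7.82% that fell. Of 14 further genes of charging and editing 13 were tested and 0 were called by edgeR, DESeq2 or limma-voom; at an unadjusted p below 0.05, 1 was higher and 3 were lower. QRSL1, GATC and GATB form the complex that makes mitochondrial glutaminyl-tRNA. Their log2 fold changes were -0.44 ± 0.16, -0.27 ± 0.16 and 0.09 ± 0.16 (SE), each without a call.

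Of 18 genes of tRNA maturation and export 17 were tested, 1 rose and 1 fell by edgeR and by limma-voom, and 2 rose and 1 fell by DESeq2. XPOT, the exportin that carries tRNA out of the nucleus, had 219, 190 and 207 CPM in DMSO and 289, 296 and 263 CPM in EZA (log2 fold change 0.46 ± 0.12, SE; edgeR adjusted p = 0.034). ADAT2, a subunit of the deaminase that makes inosine in tRNA, fell from 22.0, 16.3 and 20.65 CPM to 10.98, 10.7 and 14.6 CPM (-0.70 ± 0.18, adjusted p = 0.0336). Both were separate between groups, and both lost their calls when any 1 library other than EZA replicate 3 was left out (adjusted p up to 0.159 for XPOT and 0.152 for ADAT2). With the GC and length trend removed ADAT2 was at -0.37 (0.126) and XPOT at 0.76 (0.00651), and with the replicate number as a block XPOT missed the threshold (0.0783).

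CTU1, a subunit of the enzyme that thiolates the wobble uridine of some tRNAs, is the further gene called by DESeq2. It had 24.3, 35.05 and 32.1 CPM in DMSO and 38.5, 48.5 and 108 CPM in EZA, separate between groups and with EZA replicate 3 far above the others. Its log2 fold change was 1.09 ± 0.36 (SE), past the study's threshold, with an adjusted p of 0.0642 by edgeR, 0.0115 by DESeq2 and 0.0256 with the replicate block. Without EZA replicate 3 it was 0.52 (edgeR adjusted p = 0.0035). Removal of the GC and length trend left 0.42 (0.326).

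Of 5 genes of the sensing of uncharged tRNA 1 rose. ATF4 had 261, 276 and 258 CPM in DMSO and 856, 1015 and 1135 CPM in EZA (log2 fold change 1.92 ± 0.15, SE; edgeR adjusted p = 0.000339). EIF2AK4, which encodes GCN2, was lower in each EZA library but not called (-0.24 ± 0.11, adjusted p = 0.152). GCN1, which helps to activate GCN2, varied between EZA libraries, with 496, 335 and 887 CPM against 492 to 578 CPM in DMSO.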

How the data were processed

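PolyA RNA was made into libraries with the NEBNext Ultra RNA kit, per the labels' protocols; this kit, unlike its directional version, does not mark strand. Per the submitters' processing notes, HISAT2, featureCounts, FastQC and DESeq2 were used with GRCh38 (hg38). Tool versions, settings and the counting annotation are not given in the sources. The authors deposited unnormalised counts for each Ensembl gene and also FPKM. Counts were used for every test, the deposited FPKM only to compare levels between genes.

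Of 58735 identifiers 58207 were in GENCODE 44, which gave symbols, positions, GC content and length. After filterByExpr and TMM scaling, EZA was tested against DMSO with edgeR's robust quasi-likelihood test (two-sided, no covariates), with Benjamini-Hochberg adjustment over 13503 genes. CPM were computed after TMM scaling. Replicates differed by more than counting noise (chi-square per degree of freedom 5.10 to 127). For pairs, 0.5 counts were added before the log2 ratio. All members are accounted for; values per library are given for called members and their partners, and of related lists for called genes; some single genes of these lists are not reported here. QRSL1, GATC, GATB, CTU1, EIF2AK4, GCN1, WARS1 and QARS1 were named outside this rule, with values seen. Members, lists and the motif were chosen with earlier results of these data known.

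On data simulated for this comparison of EZA with DMSO (13313 genes), 88% of 100 genes with a 2-fold change and 100% of 100 with a 4-fold change were recovered, with 12 false calls. The simulation gave every gene the same dispersion and changed only well-counted genes. It held no library that stood apart and no trend with GC content, so rates in the real data can differ. Alternatives were other scalings, no filter, limma-voom, DESeq2, a replicate block, removal of the GC and length trend (lowess, span 0.3), and each library left out. Versions were Python 3.11.15, R 4.3.3, DESeq2 1.42.0, limma 3.58.1 and edgeR 4.0.16.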

Additional observations from a re-analysis of the deposited data

How the results depend on the processing

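The number of members called was 11, and 20 (16 higher, 4 lower) after removal of the GC and length trend and of EZA replicate 3, 6 at the study's threshold, and 6 to 15 with 1 library left out. For cytosolic and scaffold members it was 10, and 17, 6 and 6 to 13 under the same settings. For mitochondrial members it was 1, and 3, 0 and 0 to 2, and it was also 0 with library size alone, with limma-voom and after removal of the trend. Over all genes 2392 were called, 1538 after removal of the trend, 5329 with EZA replicate 3 also left out, 774 at the study's threshold and 220 to 5289 with 1 library left out. FARSA and FARSB were called in the direction opposite to their uncalled values only with the trend removed and EZA replicate 3 left out, at log2 fold changes of -0.22 and 0.31; the cause was not tested.

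With the replicate block 10 members were called, all higher: IARS1 and TARS1 lost their calls and WARS1 passed (adjusted p = 0.0379). Same-numbered libraries did not deviate together (correlations 0.03, -0.18 and 0.03 for replicates 1 to 3). With 3 libraries a group, and EZA replicate 3 apart from the others, this cannot show whether samples were handled in pairs. The direction of all 11 called members was kept under each of 14 alternatives, and 6 kept their calls under each. Of the 27 members that were not called 17 were called under none; 13 of the 27 changed sign under some alternative without a call. The number of pairs with separate ratios, 13, was 13 to 15 under its alternatives. Depth limits SARS2 most.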
